A study of Mauremys reevesii with 3 samples.

Results

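Predicted small RNAs that were kept or raised in the warmest incubation are described here. The deposited table of small RNAs from Chinese pond turtle embryos (Mauremys reevesii) held 1743 rows, of which 730 carried names beginning with novel_ and no name of a known microRNA. Of these, 220 had 10 or more counts in the 32 °C or the 26 °C library. The members are the 153 rows among them whose count per library total at 32 °C was more than 0.5 times that at 26 °C, and the other 67 lay at or under that limit. The members comprised 35 rows over 2-fold higher at 32 than at 26 °C and 118 rows within 2-fold. The members were chosen by their counts at 32 and 26 °C, so the ratio of these counts is a description and supports nothing by itself. Over all 814 rows of the table with enough counts, 85.1% passed the same ratio limit and 6.51% were over 2-fold higher.

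Libraries were made from the adrenal-kidney-gonad complex, in which the embryonic gonad lies beside the adrenal gland and the kidney. The source field of the labels names the gonad alone and the tissue field the whole complex. Eggs were kept at 26, 29 or 32 °C and dissected at stage 16 of Greenbaum's series, from which gonads respond to temperature. No strain, genotype, sex or agent other than temperature was given in the labels. RNA of 3 biological samples was pooled into 1 library per temperature, so no difference has a replicate check, no p-value is given, and intervals cover counting error only. Reads that carry no molecular identifier may come from 1 molecule several times, and intervals that ignore this are too narrow. In this species, as in many turtles, sex is set by incubation temperature, and the design asks which small RNAs differ between temperatures at the start of that period.

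MicroRNAs are cut by the enzyme Dicer from hairpin precursors, and 1 strand of the resulting duplex is kept by an Argonaute protein. The seed, bases 2 to 8 of the mature strand, largely sets which messenger RNAs are repressed. Prediction programs propose a microRNA where reads pile up on a stretch that can fold into a hairpin. Repeated sequence, transfer RNA and ribosomal RNA can also give such reads, so a predicted row is a candidate and not an established microRNA. No target, hairpin or genome position was analysed here, and no role is known for any member.

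The libraries held 9348882, 9624436 and 9613861 counts at 26, 29 and 32 °C, so that 1 count was 0.107, 0.104 and 0.104 counts per 1000000 counts of the library (CPM). Known miRNAs of the dissected tissue were present: miR-202 of the gonad (mmu-miR-202-5p) had 7500, 9800 and 3140 counts and miR-192 of the kidney (ola-miR-192-5p) 38237, 31766 and 25229. No adrenal marker was examined. Markers of other tissues were counted too, with 5629, 1410 and 1680 counts of the liver miRNA cgr-miR-122, 369, 774 and 380 of rno-miR-223-3p of leukocytes, 766, 528 and 440 of mdo-miR-206 of skeletal muscle and 47, 107 and 105 of dre-miR-137-3p of neurons. Fewer cells of a type and less RNA per cell cannot be told apart in such tissue, and the part of tissue make-up in the values below was not tested.

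The sequences that carry the results are shown first, written as RNA from 5′ to 3′ as the deposited table gives them, with the seed in capitals. The first set holds members that were higher at 32 than at 26 °C and shows 8 of the 10 whose interval lay farthest above equality.
novel_67: aGCUAUGCcacuguaguacgugu
novel_737: uUGAUUACgccaacuagggaau
novel_633: uAACUUACaucgcucaggagugu
novel_60: uCGGGACGcgggacaaacaagc
novel_123: uCGGGACAcgggacaaacaagc
novel_98: cAGCUAAAggcucucaucagu
novel_447: uCUCUGGCugugucugggcag
novel_595: aUUGACUUuagugggcuuugga

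The second set holds the most counted members, which make up most of the reads.
novel_16: aGGUGUAAacugauauagcucu
novel_795: aCUGGAGUcgauguagcuuagg
novel_32: cAGUGCAAugucaaaagggcgu
novel_42: cAUUGCACucgucccggccgga
novel_579: aGGCACGCuggcuggaagaugu
novel_47: uUGGUCUUcccauagagugacugu
novel_36: uGACUCCAgauggacaguggggc

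The third set holds members whose 29 °C level lay below or above both other temperatures.
novel_147: aGGAGCGGccuguccucugcagc
novel_132: aACCGUGCcacacaguugucuga
novel_570: uGUGUAGAccugcugcaggguu
novel_107: uAGACUUCagugugcuuuggau

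Among the rows raised at 32 °C, novel_67 had the most counts, with 7, 285 and 168 at 26, 29 and 32 °C. It stood at 29.6 CPM at 29 °C and 17.5 CPM at 32 °C and was close to absent at 26 °C. Its log2 ratio was 4.54 for 32 over 26 °C (95% interval 3.47 to 5.88), 5.31 for 29 over 26 °C (4.24 to 6.63) and -0.76 for 32 over 29 °C (-1.04 to -0.48). Its highest level was therefore at 29 °C.

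Both members with no count at 26 °C had counts at the other temperatures. The entry novel_737 had 0, 37 and 42 counts at 26, 29 and 32 °C. With the 26 °C library at a floor of 3 counts, it was 13.6-fold higher at 32 °C and 11.98-fold higher at 29 °C. The lower limits of its intervals, which use the count of 0, were log2 3.40 and 3.21. The entry novel_633 had 0, 12 and 19 counts, 6.16-fold higher at 32 °C and 3.89-fold higher at 29 °C on the same floor. Its lower limits were log2 2.18 and 1.43. In both, the intervals for 32 over 29 °C included equality.

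The pair novel_60 and novel_123 differed by 1 base, G8A from novel_60 to novel_123 with positions counted from the 5′ end, and both were higher in each warmer library. The counts of novel_60 were 26, 74 and 134, a log2 ratio of 2.33 for 32 over 26 °C (1.71 to 2.99). Those of novel_123 were 4, 16 and 33, an 8.02-fold ratio with log2 limits of 1.51 and 4.96. The differing base falls on the last seed base, so the seeds are not the same. Reads of one could have been assigned to the other, since the treatment of mismatches was not given in the sources used here.

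Other raised rows were higher at 32 °C than at both lower temperatures. The entry novel_595 had 42, 32 and 101 counts, with a log2 ratio of 1.23 for 32 over 26 °C (0.69 to 1.78) and 1.66 for 32 over 29 °C (1.07 to 2.28). The entry novel_98 had 12, 22 and 53 counts, with log2 ratios of 2.10 (1.18 to 3.14) and 1.27 (0.53 to 2.06). Lower in count were novel_99 with 5, 2 and 21, novel_181 with 5, 5 and 19, novel_448 with 6, 7 and 22 and novel_216 with 2, 1 and 13. In these rows the 29 °C level was not apart from that at 26 °C.

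A few rows were graded over the temperatures. The entry novel_447 had 37, 67 and 106 counts, with a log2 ratio of 1.48 for 32 over 26 °C (0.93 to 2.06), and novel_564 had 38, 62 and 86, with 1.14 (0.57 to 1.73). The entry novel_850 had 25, 34 and 66 counts and a log2 ratio of 1.36, with a lower limit of 0.68. Each step between neighbouring temperatures was under 2-fold in these 3 rows. The scarcer novel_169 had 5, 13 and 23 counts and a log2 ratio of 2.16 (0.73 to 3.91). Of these rows only novel_447 had intervals that excluded equality at both steps. Its log2 ratios were 0.81 (0.21 to 1.43) for 29 over 26 °C and 0.66 (0.21 to 1.13) for 32 over 29 °C.

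**Figure D1:**
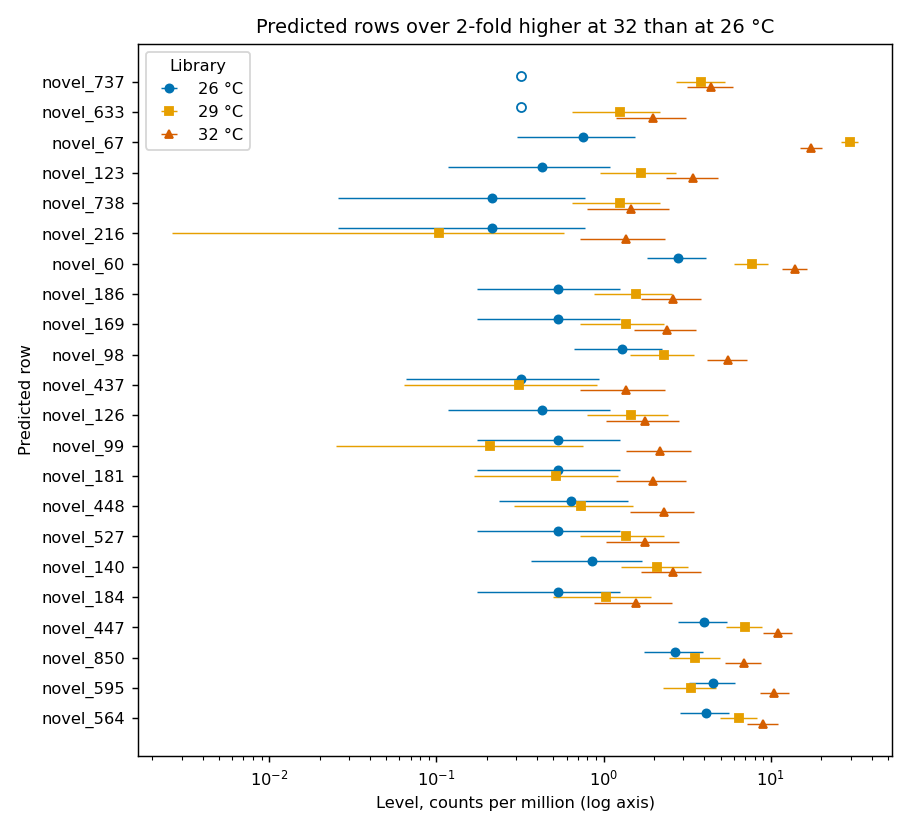
Level in CPM (log axis) of the 22 members over 2-fold higher at 32 than at 26 °C whose interval excluded equality, with 1 point per library and exact Poisson 95% intervals for counting error. Open circles mark the rows with 0 counts at 26 °C, drawn at the floor of 3 counts; novel_67 and novel_737 stand far above their 26 °C level at both 29 and 32 °C, while novel_216, novel_99 and novel_181 stand apart at 32 °C.

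Of the 35 raised rows, the interval for 32 over 26 °C excluded equality in 22. The same counts chose these rows, so this is a description. Over all 814 rows with enough counts, 53 (6.51%) were over 2-fold higher. Such an interval at 2-fold or more was found in 36 of the 814 (4.42%). A count minimum favours raised rows: 29 of the 35 had 10 or more counts only in the 32 °C library, and 6 had them in both. Most were scarce, with a median of 30 counts over the 3 libraries, and 29 of the 35 had fewer than 100. The 13 raised rows whose interval included equality had 3 to 6 counts at 26 °C and 10 to 15 at 32 °C, for example novel_408 with 3, 11 and 10 and novel_798 with 5, 4 and 13.

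The rows nearest to the limits of the rule were as follows. Just inside the limit of 0.5, novel_795, novel_108 and novel_47 had ratios of 0.508, 0.510 and 0.524 for 32 over 26 °C, and just outside it novel_651, novel_109 and novel_560 had 0.486, 0.479 and 0.474. Just above 2-fold, novel_156 had 2.11, novel_564 2.20 and novel_582 2.33, and just under it novel_532, novel_195, novel_671, novel_820, novel_189 and novel_481 tied at 1.94.

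The 29 °C library took no part in choosing the members. A row was taken as apart between libraries when it differed at least 2-fold and its interval left out equality, with 10 or more counts in one of them. Higher at 29 than at 26 °C in this sense were 14 of 132 members, or 10.6%, and 4.56% of all rows were. Lower at 29 °C were 8 of 132, or 6.06%, beside 6.28% of all rows. Between 32 and 29 °C, 17 of 151 members were higher, or 11.3%, beside 2.73% of all rows, and 4 were lower, or 2.65%, beside 9.67%. Both comparisons share a library with the rule, which favours these directions, and they were not tested. The median log2 ratio was 0.02 for 29 over 26 °C in the 132 members and 0.18 for 32 over 29 °C in the 151. Beside these stood -0.00380 in 787 and -0.16 in 782 of the 814 rows, those with 10 or more counts in either library compared.

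Split by the 29 °C library, the 35 raised rows fell into 4 groups. In 9 rows the 29 °C level was already at least 2-fold above 26 °C and 32 °C was not apart from 29 °C, namely in novel_67, novel_737, novel_633, novel_60, novel_140, novel_186, novel_758, novel_126 and novel_738. In 10 rows, such as novel_595 and novel_98, 32 °C was apart from 29 °C and 29 °C was not apart from 26 °C. Not apart does not mean equal: novel_98 had a log2 ratio of 0.83 for 29 over 26 °C (-0.24 to 1.98). Only novel_123 was apart at both steps, and 15 rows at neither. With trimmed-mean (TMM) or median-of-ratios scaling, novel_60 was also apart at both steps and novel_850 was also apart between 29 and 32 °C.

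In the 118 rows within 2-fold, 49 had a higher and 69 a lower value at 32 than at 26 °C on the library total. The interval excluded equality in 10 of the higher and 18 of the lower ones. This split depends on the scaling, since rows near equality can change side. The log2 ratio of novel_32 was -0.07 on the library total and 0.14 with TMM factors. The median of all rows with enough counts was -0.13 and 0.09. At 29 °C, 102 of the 118 were apart from neither other library. The 29 °C level was the highest in 38 rows, between the others in 37 and the lowest in 43. Over all 153 members the lowest level was at 29 °C in 53, or 34.6%, where it was in 22.2% of all rows, and the highest was there in 41, or 26.8%, where it was in 34.5%. For most this order was not resolved. It was taken as resolved where the intervals for 29 over 26 °C and for 32 over 29 °C both excluded equality. That left 6 members with 29 °C as the highest, 5 as the lowest and 6 as the intermediate value. These were 3.92%, 3.27% and 3.92% of the members, beside 13.1%, 4.18% and 12.9% of all rows. The rule sets no minimum at 29 °C and leaves out predicted rows that are low at 32 °C. In scarce rows this may favour the lowest place for 29 °C, which was not tested. With a minimum of 30 counts, 24 of 79 members were highest and 26 lowest at 29 °C. The shares of all rows at that minimum are not given here.

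All 5 members resolved as lowest at 29 °C were at least 2-fold below both other libraries. They were novel_570 with 53, 20 and 45 counts at 26, 29 and 32 °C, novel_132 with 34, 8 and 26, novel_160 with 19, 5 and 19, novel_147 with 16, 2 and 12 and novel_532 with 24, 9 and 48. The log2 ratio for 29 over 26 °C was -3.04 in novel_147 (-6.21 to -0.95), -2.13 in novel_132 (-3.45 to -0.99) and -1.45 in novel_570 (-2.27 to -0.68). Their log2 ratios for 32 over 29 °C were 2.59, 1.70 and 1.17. The entries novel_108 with 61, 22 and 32 counts and novel_492 with 59, 23 and 34 were also lowest at 29 °C, but their 32 °C level was not apart from it.

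The opposite shape was found in novel_107, with 13, 38 and 13 counts and log2 ratios of 1.51 for 29 over 26 °C (0.57 to 2.54) and -1.55 for 32 over 29 °C (-2.58 to -0.61). The entries novel_51, with 180, 319 and 229 counts, and novel_50, with 235, 399 and 314, peaked at 29 °C as well, with log2 ratios of 0.78 (0.52 to 1.06) and 0.72 (0.49 to 0.96) for 29 over 26 °C. For 32 over 29 °C novel_50 had -0.34 (-0.56 to -0.13) on the library total, but -0.15 (-0.36 to 0.07) with TMM factors and -0.19 (-0.41 to 0.02) with median-of-ratios factors, intervals that include equality. The entries novel_733, novel_614 and novel_189 were at least 2-fold higher at 29 than at 26 °C, with 31, 68 and 41, with 14, 38 and 25 and with 5, 17 and 10 counts.

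**Figure D2:**
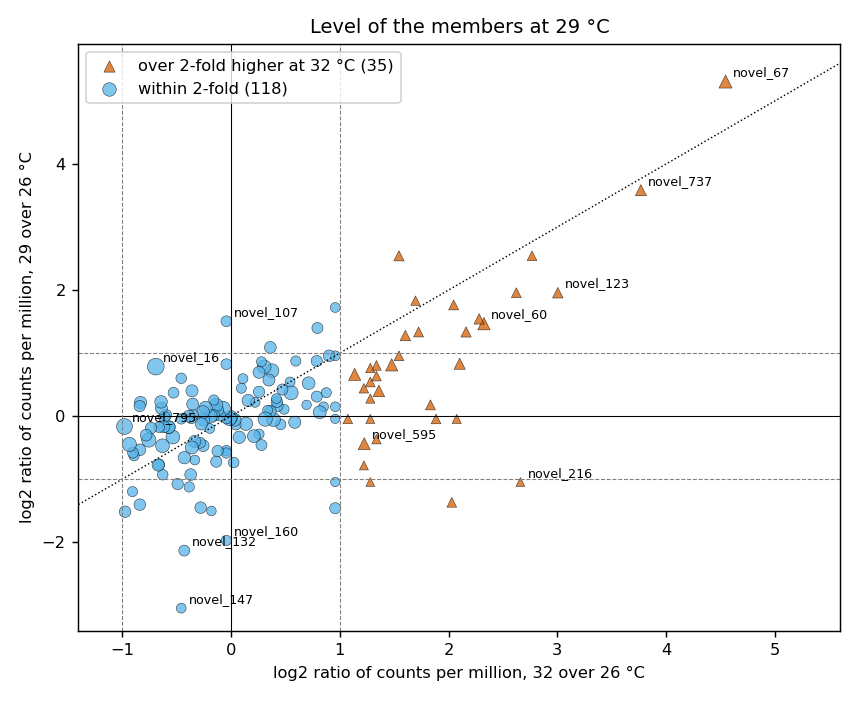
Log2 ratio of CPM for 29 over 26 °C (vertical) against 32 over 26 °C (horizontal) for the 153 members, with zero counts set to 3; larger symbols have more counts, triangles are the 35 raised rows and circles the 118 within 2-fold, dashed lines mark 2-fold and the dotted line equal levels at 29 and 32 °C. The axes share the 26 °C library. Points such as novel_67 lie above the dotted line, novel_595 and novel_216 far below it, and novel_147, novel_132 and novel_160 at the bottom with little difference between 32 and 26 °C.

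The reads were concentrated in a few members. The most counted, novel_16, had 5993, 10646 and 3823 counts at 26, 29 and 32 °C and made up 32.4%, 45.4% and 24.97% of the members' counts. The next, novel_795, had 3065, 2817 and 1602 counts and sat just inside the limit of the rule, with a log2 ratio of -0.98 for 32 over 26 °C (-1.06 to -0.89). All members together had 18488, 23451 and 15308 counts, or 0.198% (95% exact binomial interval 0.195 to 0.201), 0.244% (0.241 to 0.247) and 0.159% (0.157 to 0.162) of the library totals. Rows can hold the same counts: hsa-miR-148a-3p and ggo-miR-148a each had 603972, 530316 and 546351. A read may thus enter the totals more than once. These are therefore shares of counts and not of reads, with nominal intervals. The members' summed log2 ratio was -0.31 for 32 over 26 °C (-0.34 to -0.28) and 0.30 for 29 over 26 °C (0.27 to 0.33). Without novel_16 these were -0.16 (-0.20 to -0.13) and -0.00655 (-0.04 to 0.03). Without novel_16 and novel_795 the sums were 9430, 9988 and 9883 counts and the log2 ratios 0.03 (-0.01 to 0.07) and 0.04 (0.00 to 0.08).

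The other abundant members were all within 2-fold between 32 and 26 °C. The entry novel_32 had 830, 929 and 812 counts, and its interval for 32 over 26 °C included equality. Higher at 32 °C were novel_36, with 318, 424 and 480 counts and a log2 ratio of 0.55 (0.35 to 0.76), novel_42, with 432, 431 and 553 and 0.32 (0.13 to 0.50), and novel_44, with 266, 264 and 359 and 0.39 (0.16 to 0.63). Lower at 32 °C were novel_579, with 580, 460 and 354 and -0.75 (-0.95 to -0.56), and novel_47, with 536, 405 and 289 and -0.93 (-1.14 to -0.72). Close to equal counts were held by novel_559 with 242, 242 and 247 and novel_515 with 205, 209 and 211. The median of all rows with enough counts stood at -0.13 for 32 over 26 °C on the library total and at 0.09 with TMM factors, a shift of the same order as the smaller of these ratios.

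**Figure D3:**
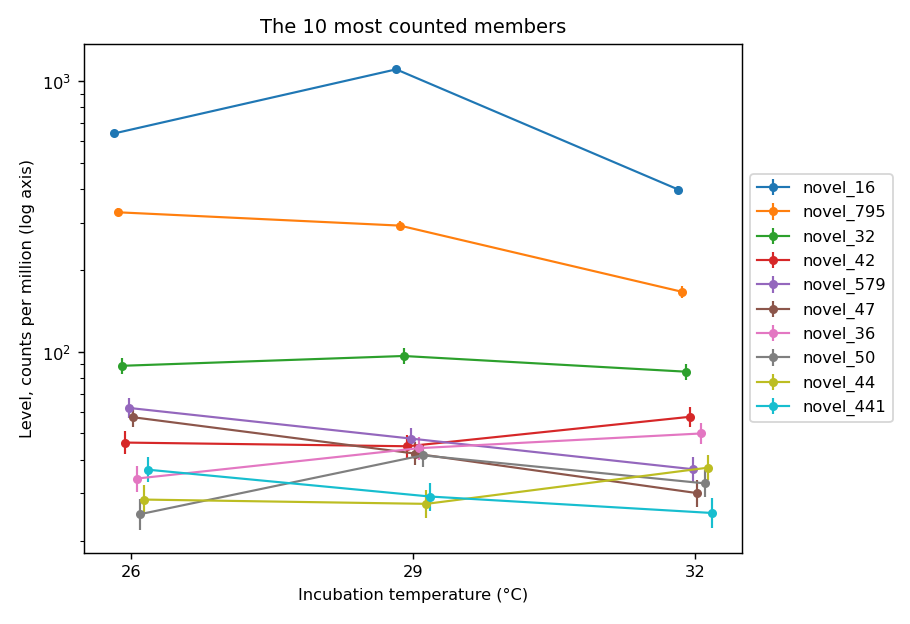
Level in CPM (log axis) of the 10 most counted members against incubation temperature, with exact Poisson 95% intervals for counting error and points set slightly apart sideways. The line of novel_16 peaks at 29 °C, those of novel_795, novel_579, novel_47 and novel_441 are lower in each warmer library, and novel_36 is higher in each.

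Below these, abundance was low. Of the 153 members, 7 had 1000 or more counts over the 3 libraries, 19 had 300 up to 1000, 38 had 100 up to 300, 63 had 30 up to 100 and 26 had fewer than 30. The median level was 2.46, 2.39 and 2.70 CPM at 26, 29 and 32 °C, whereas named rows with enough counts had medians of 22.2, 19.9 and 18.4 CPM. At least 10 counts in both the 32 and the 26 °C library were present in 107 members, and 43 passed the minimum only at 32 °C and 3 only at 26 °C. The remaining 510 predicted rows had too few counts for the rule and together held 1312, 1333 and 1019 counts.

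Most members had the length usual for Dicer products. They were 18 to 25 bases long with a median of 22, and 137 of 153 (89.5%) had 21 to 23 bases, beside 60 of 67 predicted rows at or under the ratio limit (89.6%), 88.0% of those with too few counts and 73.6% of named rows with enough counts. Length did not set the raised rows apart, since 31 of the 35 (88.6%) had 21 to 23 bases. The longest members, of 25 bases, were novel_44 and novel_200, and the shortest, of 18 bases, were novel_670 and novel_798. The first base was U in 82 members (53.6%), A in 36, C in 24 and G in 11, and it was U in 53.7% of the rows at or under the limit and in 48.3% of the named rows. The GC content ranged from 27.3% to 81.0% with a median of 50.0%, beside 47.8% at or under the limit and 45.0% in the named rows.

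**Figure D4:**
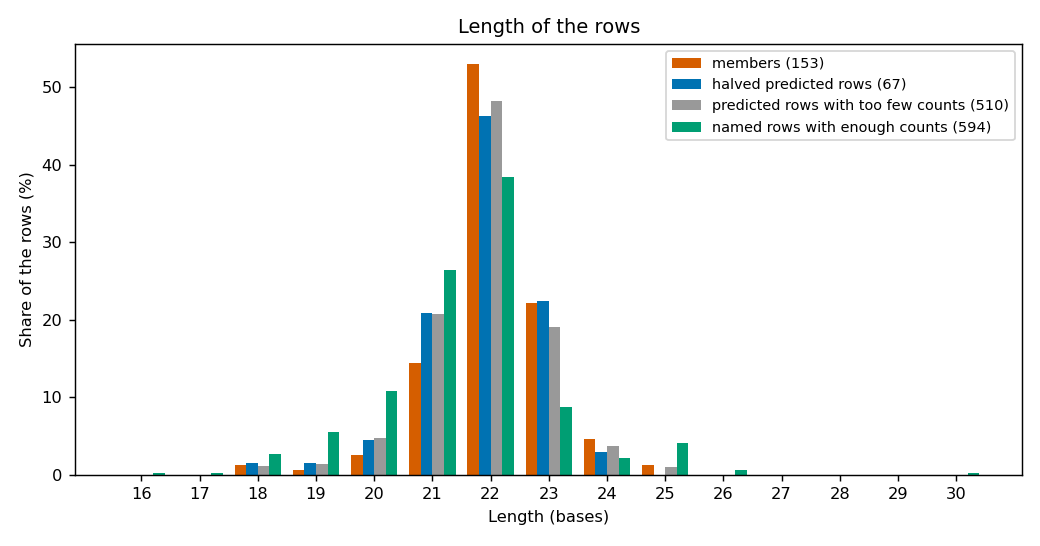
Share of rows (%) by length in bases for the 153 members, the 67 predicted rows at or under the ratio limit (labelled halved predicted rows), the 510 predicted rows with too few counts and the 594 named rows with enough counts. All 4 sets peak at 22 bases, where 52.9% of the members lie, and the members span 18 to 25 bases.

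Few members resembled a known miRNA of the table. Members were by definition rows without a known name, so this low number supports nothing by itself. Only 7 of 153 shared bases 2 to 8 with a named row, beside 3 of 67 at or under the limit, and 4 lay within 3 edits of one. In the sequences below, capitals mark the bases at which the member differs from its nearest named row.
novel_32: cagugcaauguCaaaagggcGu
novel_42: cauugcacucgucccggccGga
novel_54: uugcauagucacaaaagugaGc
novel_798: cuccugCcuggcucgcca

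The substitutions are given from the named row to the member, with positions counted from the 5′ end. The entry novel_32 differed from mmu-miR-130a-3p by U12C and A21G and had 830, 929 and 812 counts at 26, 29 and 32 °C, beside 52, 70 and 68 for the named row. The most counted row with that seed, aca-miR-130b-3p, had 17364, 16191 and 14313 counts. The entry novel_42 differed from bfl-miR-92b-3p by U20G. That named row had 11, 13 and 16 counts and a log2 ratio of 0.50 for 32 over 26 °C (-0.70 to 1.75), beside 0.32 for novel_42. Another named row, xtr-miR-92b, which shares 18 consecutive bases with novel_42, had 8421, 5707 and 5412 counts and a log2 ratio of -0.68 for 32 over 26 °C (-0.73 to -0.63).

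The entry novel_54 differed from miR-153 of neurons (mmu-miR-153-3p) by U21G. It had 173, 164 and 196 counts, a log2 ratio of 0.14 for 32 over 26 °C (-0.16 to 0.44). The named row had 19, 25 and 52 counts and a log2 ratio of 1.41 (0.63 to 2.25). The named row was thus the scarcer one, and the 2 intervals did not overlap. The entry novel_798 differed from oan-miR-1386 by G7C and had 5, 4 and 13 counts, beside 21, 17 and 14. The other members with a known seed were novel_112 with that of oha-miR-135-1-3p, novel_83 with that of mmu-miR-125b-5p, novel_184 with that of tgu-miR-217-5p and novel_191 with that of hsa-miR-24-1-5p. Each of these 4 was at least 7 edits from any named row.

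Members repeated each other more often than they repeated known miRNAs, with the same limit that members carry no known name. A run of 16 or more bases was shared with another row, on either strand, by 39 of 153 (25.5%), beside 10 of 67 predicted rows at or under the limit (14.9%), 14.1% of those with too few counts and 93.9% of named rows with enough counts. Over all rows the share was 58.6%, which includes named rows that repeat one another: 558 of the 594 shared a run with another named row. The members thus lay under the table as a whole but above both other sets of predicted rows. Most of the 39 belong to the largest sequence family described below, so their share counts related sequences and does not show a trait of the members at large. In 24 of the 39 the shared row was another member and in 2 a named miRNA. Taking rows that share 16 bases as 1 sequence group, the 153 members formed 136 groups. No member had the exact sequence of another row. The 35 raised rows lay in 35 separate groups and 6 of them shared 16 bases with any row.

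Opposite-strand repeats were found for 25 members (16.3%), beside 5.97% of predicted rows at or under the limit, 6.86% of those with too few counts, 28.8% of named rows with enough counts and 17.8% of all rows. The members' share thus lay near that of all rows and above those of both other sets of predicted rows. Most of the 25, such as novel_441, novel_81 and novel_130, belong to the largest sequence family described below. The share thus counts related sequences and not independent rows, and it does not show a trait of the members at large. Among members there were 19 such pairs. In the pairs below, capitals mark the stretch in which each sequence is the exact reverse complement of its partner; they are shown because the partners' counts can be read against each other.
novel_130: CCUAAGCUACGUCGACUCCAGCg
novel_38: GCUGGAGUCGACGUAGCUUAGG
novel_441: AAUAAGAUACGUCGACUUCAGCu
novel_81: GCUGAAGUCGACGUAUCUUAUU
novel_515: UCAGCCCUCCCAGGCUUCCCGcg
novel_106: CGGGAAGCCUGGGAGGGCUGAga
novel_65: UCUAAGAUAUGUCGACUUCAGcu
novel_186: CUGAAGUCGACAUAUCUUAGAu

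Partners had the same or different counts. The entries novel_130 and novel_38, complementary over 22 bases, had identical counts of 127, 116 and 88 at 26, 29 and 32 °C. The entries novel_441 and novel_81 had 343, 281 and 244 and 329, 245 and 219 counts, so they differed by at most 12.8% in a library. In the other pairs shown the strands were unequal: novel_515 had 205, 209 and 211 counts and novel_106 34, 37 and 45, while novel_65 had 55, 53 and 85 and novel_186 5, 15 and 25. Of the pairs not shown, some were closer. The entries novel_106 and novel_433 differed by at most 14.7% in a library, and novel_76 and novel_77 by at most 24.7%. The pair novel_189 and novel_408 had 5, 17 and 10 and 3, 11 and 10. Only 1 of the 19 pairs had counts within 10% in every library. Whether reads were counted by strand was not given in the sources used here, so reads of complementary rows may not be separable.

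Dicer duplexes of animals leave 2 unpaired bases at each 3′ end. The strands novel_515 and novel_106, complementary over 21 bases, left 2 bases unpaired at each 3′ end and none at the 5′ ends. The strands of novel_65 and novel_186 left 2 and 1, and those of novel_130 and novel_38 left 1 and 0. Of the 19 member pairs, novel_515 with novel_106 alone had exactly 2 at both 3′ ends and none at either 5′ end.

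After the data were seen, predicted rows at most 3 edits apart, in either direction, were linked into families. The 153 members then fell into 115 families, of which 98 were single rows. The largest held 71 rows, of which 24 were members, 8 lay at or under the ratio limit and 39 had too few counts. Of its members, 13 ran in the direction of novel_795, the most counted, and 11 in the reverse direction, of which novel_441 was the most counted. The direction was called reverse where the reverse complement had fewer edits to novel_795. Members lay up to 7 edits from novel_795, those over 3 edits linked through other rows, so the direction of distant members is less sure. In the sequences below, shown for both directions, capitals mark GUCGAC, which reads the same on both strands.
novel_795: acuggagucgauguagcuuagg
novel_39: acuggaGUCGACguagcuuagg
novel_508: ucuaagauacGUCGACuucagcu
novel_441: aauaagauacGUCGACuucagcu

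The motif GUCGAC was present in 12 of 153 members (7.84%), in 2 of 67 predicted rows at or under the limit, in 15 of the 510 with too few counts and in 0 of 1013 named rows, or 1.66% of all rows. All 12 of these members belong to this family, from whose sequences the motif was taken. The shares thus count related sequences and not independent rows. The row novel_795 lacks it by 1 base and differs from novel_39 by U12C. Seeds were shared across the family too: novel_508, novel_77, novel_65 and novel_82 had the seed CUAAGAU, and novel_795, novel_38, novel_39 and novel_755 had CUGGAGU. Over all members there were 141 different seeds, 8 of which occurred in more than 1 member.

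The family's 24 members had 4775, 4397 and 3016 counts at 26, 29 and 32 °C, of which novel_795 held most. The 23 without it had 1710, 1580 and 1414 counts, a log2 ratio of -0.31 for 32 over 26 °C (-0.42 to -0.21). Complementary rows among them, such as novel_130 and novel_38, may hold the same reads, so this interval may be too narrow. Members of the family differed among themselves, and the ratio for 32 over 26 °C ranged from 0.508 in novel_795 to 4.86 in novel_186. The entry novel_65, 1 base from novel_508 (C10U from novel_508 to novel_65), was higher at 32 °C with a ratio of 1.503, where novel_508 had 0.911. The entry novel_153, which differs from novel_795 by A11G, had 19, 13 and 5 counts and lay outside the limit, as did novel_141 with 41, 8 and 0 counts. The 26 and 32 °C counts chose which rows are members, so the gap between members and the other 8 rows is fixed by the rule.

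**Figure D5:**
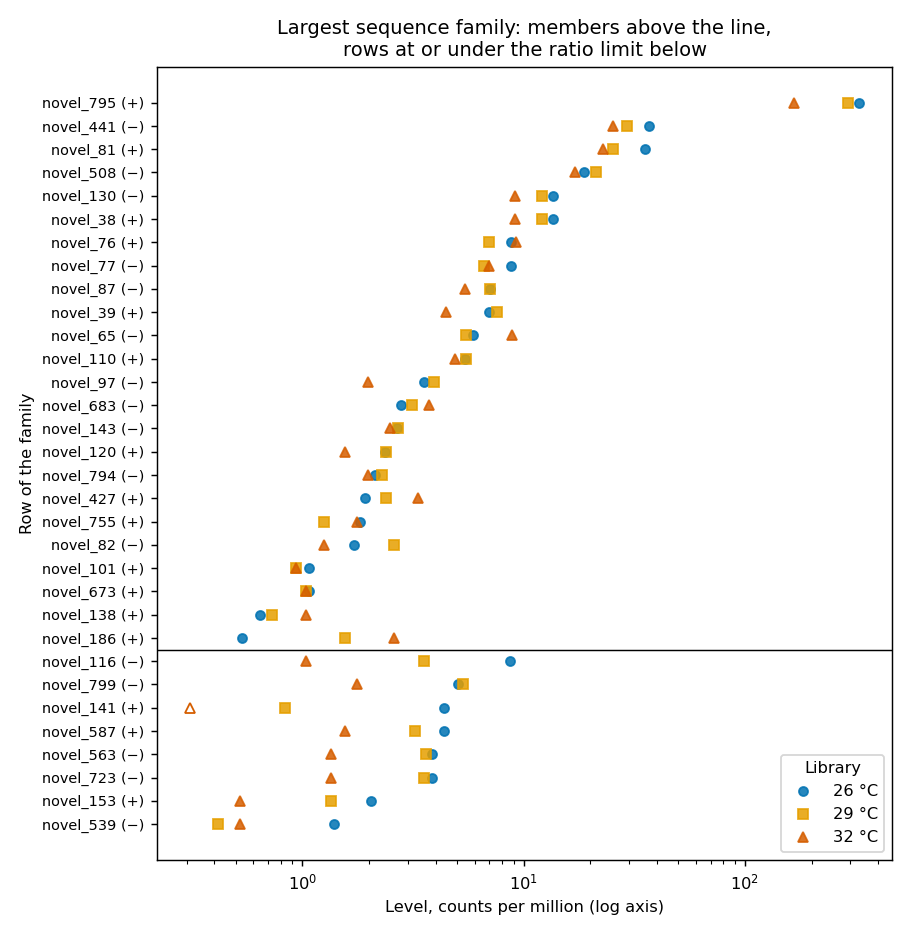
Level in CPM (log axis) at 26, 29 and 32 °C of the 24 members of the largest sequence family (above the line) and of its 8 rows at or under the ratio limit (below the line); (+) marks rows that read in the direction of novel_795 and (−) rows that read in the reverse direction. The open triangle marks 0 counts at 32 °C in novel_141, drawn at the floor of 3 counts. The highest levels are those of novel_795, and novel_441 is the highest row of the reverse direction.

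A second family of 43 rows held 9 members, 4 rows at or under the ratio limit and 30 with too few counts. Raised were 4 of its 9 members, beside 35 of all 153 members and 6.51% of all rows with enough counts. It is represented by these sequences, its most counted member and 2 raised ones.
novel_51: uccaaagccuuuugaagucugu
novel_595: auugacuuuagugggcuuugga
novel_448: auccaaaguccagugaaguca

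Its members had 373, 535 and 501 counts at 26, 29 and 32 °C. In 5 of the 9 the sequence ran in the reverse direction of novel_51, by the same rule of fewer edits. All members but novel_51 itself lay 6 to 9 edits from it, linked through other rows, so their directions are uncertain. The raised ones were novel_595, novel_448, novel_166 with 6, 9 and 15 counts and novel_488 with 5, 8 and 13. For novel_166 and novel_488 the interval for 32 over 26 °C included equality. Both novel_107 and novel_51 peaked at 29 °C. Relatives of novel_16, whose log2 ratio for 32 over 26 °C was -0.69 (-0.75 to -0.63), varied. The entry novel_96, 4 edits from it, had 26, 20 and 22 counts and a log2 ratio of -0.28 (-1.17 to 0.59), an interval that includes the value of novel_16. The entry novel_64, also 4 edits from it, had 106, 114 and 192 counts, a ratio of 1.76 for 32 over 26 °C, and novel_105, 3 edits from it and outside the limit, had 59, 30 and 11.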

How the data were processed

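Small RNAs of 3 libraries, 1 per incubation temperature, were analysed from 1 table. Per the file headers, the deposited table gives every row's count at each temperature and the same values as TPM. The deposited TPM equalled the count scaled to a column total of 1000000, with no length term, within 0.01% in all rows. FastQC and Bowtie are named in the submitters' processing notes. Not given in the sources used here were their versions, the genome build, the mismatches allowed, the strand setting, the prediction program and the handling of multiply matching reads. The labels gave each library's temperature, and the column names gave its columns. All rows, also those that repeat a sequence, entered the totals.

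Ratios are counts per column total, with 95% exact conditional (Clopper-Pearson) intervals for the 2 counts. Rows 2-fold or more apart whose interval left out equality were taken as apart, given 10 or more counts at one of the 2 temperatures. For fold values of rows with 0 counts and for medians, 0 counts were replaced by a floor of 3 counts per library. Levels have exact Poisson 95% intervals. With 1 library for each temperature there was no test between libraries, so edgeR's and DESeq2's tests were not run and gave only scaling factors.

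The members, lists and rules were chosen with earlier results of these data known. Rows named in the text are the 10 raised members with the highest lower limit, the 10 most counted, 5 each with the highest and lowest 29 over 26 °C limits within 2-fold, rows beside the limits, repeated rows, rows with a known seed and the longest and shortest. Other rows were named after their values were seen. Rows sharing 16 consecutive bases on either strand formed sequence groups. Edits were counted with the shorter row placed anywhere in the longer for families, and over whole rows for likeness to named rows.

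Alternatives were TMM factors (edgeR 4.0.16), median-of-ratios factors (DESeq2 1.42.0, R 4.3.3), a total without the most abundant row, other count minimums, other interval rules, 1 row per sequence group and other lengths of shared sequence. The ratio step, run in scipy 1.17.1 and pandas 2.3.3 under Python 3.11.15, was tested on simulated counts.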

Additional observations from a re-analysis of the deposited data

How the results depend on the processing

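No paired analysis was possible because 1 library stood for each temperature. Depth limits the count of members: with a minimum of 30 counts the 153 members became 79, with 9 raised and 70 within 2-fold. With a minimum of 1 count they became 429, with 126 and 303. At 30 counts, members higher and lower at 29 than at 26 °C became 4 and 5, those higher and lower at 32 than at 29 °C 5 and 2, and those highest, between and lowest at 29 °C 24, 29 and 26. At 1 count the last 3 became 118, 138 and 173, and members lower at 32 than at 29 °C 7. With the whole interval beyond 2-fold, members higher and lower at 29 than at 26 °C became 4 and 0, and those higher and lower at 32 than at 29 °C 4 and 1. Requiring the intervals for 29 over 26 °C and for 32 over 29 °C both to exclude equality left 6 highest, 6 between and 5 lowest.

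TMM and median-of-ratios factors each left 2 members lower at 32 than at 29 °C, without novel_655 and novel_82, while all 153 members stayed members and 8 and 5 rows joined them. Raised rows became 48 and 44, which include all 35. The summed log2 ratio for 32 over 26 °C became -0.10 and -0.15 with these factors. Without the most counted member it was -0.16, and -0.00655 for 29 over 26 °C. Without the 2 most counted members, a choice made after seeing the data, the values were 0.0274 and 0.0410. Of 90 alternative values 57 stayed within the limits set for them, 31 moved beyond them and 2 changed sign. The 2 were the summed log2 ratios of -0.00655 and 0.0274 given above. The limits were wide, since the 48 raised rows still lay within them. In the second sequence family, 3 members were left with at most 2 edits and 12 with 4.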
